A study of Mus musculus with 6 samples.

Results

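The 6 mouse DNA topoisomerase genes (Top1, Top1mt, Top2a, Top2b, Top3a and Top3b) and 3 genes that repair topoisomerases trapped on DNA (Tdp1, Tdp2 and Sprtn) were followed in B16F10 cells, an established mouse melanoma line. They were picked by gene symbol, as the topoisomerases, of which doxorubicin is known to act on the TOP2 enzymes, and as enzymes that clear trapped topoisomerases. All 9 were among the 15726 genes of the deposited table. The design has 2 groups of 3 libraries each: a treated group, which received 50 μg/mL of rPPAA18C6@Dox, and a control group, which received PBS. RNA was taken from both at 8 h. The preparation is known here by its code alone; the title of the series describes a nanoplatform built on a potassium ionophore and responsive to reactive oxygen species. Dox is the usual short form of doxorubicin, but the labels do not spell it out. No carrier without drug and no free drug was analysed here, so the parts of the preparation cannot be told apart. The columns of the treated libraries carry a letter that is not in the titles, so they were assigned by elimination, and the sign of every difference rests on that reading.

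Topoisomerases cut DNA, let the strands pass or turn, and seal the cut, and during the cut the enzyme is held to the DNA end by a covalent bond. Doxorubicin is known as a poison of the TOP2 enzymes: it holds them in the cut state, which leaves a break with protein on its ends. Cells clear such adducts with the phosphodiesterases TDP1, which acts mainly on TOP1, and TDP2, which acts mainly on TOP2, and with the protease SPRTN, which digests proteins crosslinked to DNA during replication. Whether the preparation changed the mRNA of these enzymes is the question that the comparison addresses.

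None of the 9 genes passed the test. Of the 9, 0 had an adjusted p under 0.05 in limma (Benjamini-Hochberg over 10680 tested genes), and 1 had an unadjusted p under 0.05 (Top2a). In voom 0 passed, and the 1 with an unadjusted p under 0.05 was Sprtn (voom adjusted p = 0.136), whereas Top2a had a voom adjusted p of 0.424. Over all tested genes limma called 9.93%, that is 498 higher and 562 lower, whereas voom called 909 higher and 650 lower, and 26.2% had an unadjusted p under 0.05. With any 1 library left out limma called 600 to 749 genes, and still 0 of the 9. The estimates ran from -0.094 (Top3a) to 0.071 (Sprtn) on the log2(FPKM + 1) scale, and the 9 unadjusted 95% intervals together spanned -0.205 to 0.149. The median SE was 0.0367 for the 9 genes and 0.0357 for the genes that limma called. Among the called genes the median change was 0.182 in size and the smallest 0.0786 on the same scale. That smallest change is not a limit of detection for the 9 genes. Top3a (-0.094, SE 0.0496) and Top3b (-0.080, SE 0.0552) had larger estimates in size and were not called. In the treated group 7 estimates were lower than in PBS and 2 higher, and the median was -0.038, beside -0.013 over all tested genes, 56.5% of which also had an estimate below 0.

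B16F10 cells expressed the 9 genes at very different levels. FPKM is reads per gene length and library depth, so a comparison between genes rests on the length used for each gene. In treated replicate 1, Tdp1 had 1559 recovered reads at 4.992 FPKM, and Top3b had 1607 at 10.23 FPKM. Top2a came first at a mean of 154.8 FPKM over the 6 libraries, above 97.8% of the genes in the table. Top1 followed at 42.55 FPKM, Top2b at 37.17 and Tdp2 at 24.57. Sprtn, Top1mt and Top3b lay close together at 10.92, 10.15 and 9.693 FPKM, and Tdp1 and Top3a were lowest at 4.922 and 4.268 FPKM. Only the neighbours Sprtn and Top1mt, and Top1mt and Top3b, overlapped in their ranges over the 6 libraries; every other neighbouring pair was apart. Each library held between 772 (Top1mt) and 30614 (Top2a) recovered reads of a member. For some members counting noise was still of the size of the difference between groups. Counting alone gives a spread of 3.47% between treated libraries for Top1mt, where the means differed by -2.77%. For Tdp1 these values were 2.54% and 1.54%.

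**Figure D1:**
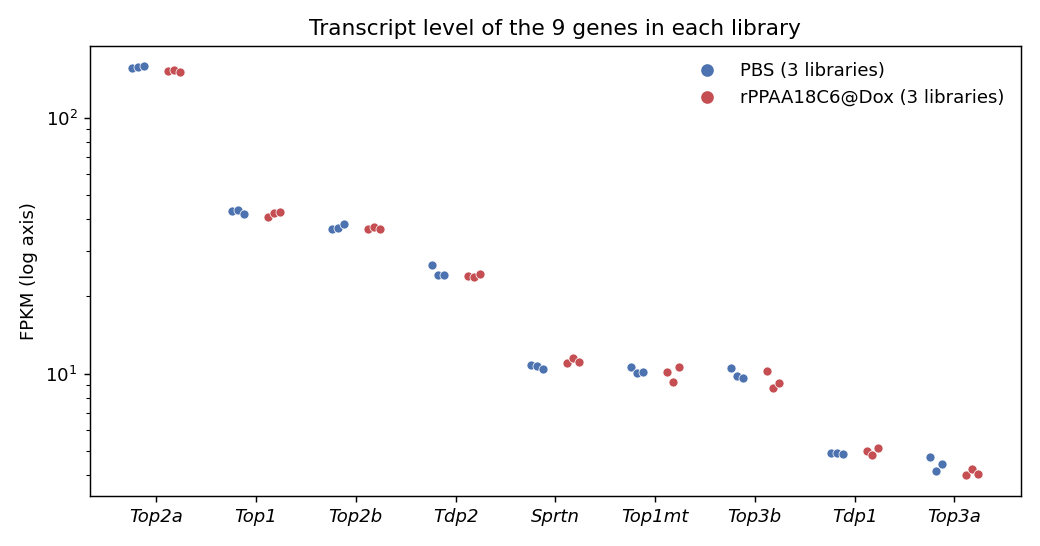
FPKM of each gene (log axis) in each of the 6 libraries, with PBS in blue and rPPAA18C6@Dox in red; each point is 1 library, in the order of replicates 1 to 3. Top2a sits near 155 FPKM in all 6, and the points of both groups lie side by side for every gene.

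The melanocyte identity of the libraries was checked first. All 7 melanocyte markers were above 1 FPKM, with a summed level of 7200 to 7230 FPKM in the treated and 6140 to 6230 FPKM in the PBS libraries. Of the markers of other cells, 1 of 6 immune, 5 of 6 fibroblast, 1 of 5 epithelial and 2 of 4 endothelial genes had a row, with sums of at most 4.88 FPKM. The summed endothelial markers were 4.72 to 4.88 FPKM in treated and 2.90 to 3.23 FPKM in PBS libraries, the immune marker 1.61 to 1.72 and 1.22 to 1.34, the fibroblast markers 3.70 to 4.07 and 4.24 to 4.35, and the epithelial marker 0.159 to 0.280 and 0.146 to 0.175. Their part in the results was not tested. Recovered depth was 36380462 to 37067116 reads a library. Libraries of a group differed by a mean chi-square per gene of 2.38 to 3.98, where counting noise alone gives about 1, and libraries of different groups by 8.49 to 11.4. Separate cultures are not mentioned in the labels, so the p-values reflect the spread between libraries, which could be technical. In such bulk RNA, fewer cells in a given cell cycle phase and less RNA per cell cannot be told apart.

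Top2a, the isoform made in dividing cells and needed to separate chromosomes at mitosis, gave 152.3, 153.8 and 150.6 FPKM in the treated libraries and 156.3, 157.5 and 158.5 FPKM in the PBS libraries. Every treated library lay below every PBS library, although the gap was small. Its mean was 3.32% lower, at 152.2 ± 1.58 against 157.4 ± 1.12 FPKM (SD, n = 3 libraries each), a log2 fold change of -0.048 (SE 0.0216, limma adjusted p = 0.189, and 0.0685 to 0.424 over the alternatives). The unadjusted 95% interval ran from -6.48% to -0.0122% of FPKM + 1. The p in the authors' deposited table was 0.1758 for Top2a.

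Top2b, the isoform that is also present in cells that no longer divide, gave 36.82, 37.44 and 36.78 FPKM in the treated and 36.55, 36.95 and 38.52 FPKM in the PBS libraries. The groups overlapped, with both the lowest and the highest value in PBS. The log2 fold change was -0.012 (SE 0.0284, adjusted p = 0.830), with an interval of -5.10% to 3.62%; the sign turned with voom and without PBS replicate 3. In the GENCODE vM21 annotation of GRCm38, 12.3% of the exon bases of Top2b overlap Rarb on the other strand, and the use of strand in counting is not given in the sources used here. Rarb itself was at 0.819 FPKM in treated and 0.464 FPKM in PBS libraries, and its part in the Top2b value was not tested.

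The balance of the 2 isoforms was also compared. The ratio of Top2a to Top2b was 4.14, 4.11 and 4.09 in the treated and 4.28, 4.26 and 4.12 in the PBS libraries, so the groups overlapped in their ranges only between the highest treated and the lowest PBS library. The log2 difference was -0.036, with a two-sided exact permutation p of 0.20, where 3 against 3 libraries cannot go below 0.10. Among the FPKM of the 6 topoisomerase genes, Top2a took 59.3% to 60.2% in every library and Top2b 14.0% to 14.6%. Top1 took a mean of 16.5% in treated and 16.4% in PBS libraries, and at most 16.9%. Top1mt took 3.63% to 4.17%, Top3b 3.43% to 4.03% and Top3a 1.57% to 1.80%. Top2a alone thus made up more of the topoisomerase mRNA, per length, than the other 5 genes together in every library.

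The promoters of the 2 isoforms are shown because their levels stand apart in every library. Each sequence covers 250 bases before to 50 after the annotated start, read on the strand of the gene from RefSeq's GRCm38.p6 table: Top2a at chr11:99024140-99024439 on the minus strand and Top2b at chr14:16364956-16365255 on the plus strand. Capitals mark CCAAT on either strand (printed as CCAAT or ATTGG), the box that the factor NF-Y is known to bind in many cell cycle promoters.
Top2a: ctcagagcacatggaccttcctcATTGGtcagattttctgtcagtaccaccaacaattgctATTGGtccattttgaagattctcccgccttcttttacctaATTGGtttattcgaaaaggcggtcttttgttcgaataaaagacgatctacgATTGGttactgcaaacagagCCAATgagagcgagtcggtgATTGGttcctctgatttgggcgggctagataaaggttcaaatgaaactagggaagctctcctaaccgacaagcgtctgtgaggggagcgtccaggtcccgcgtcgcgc
Top2b: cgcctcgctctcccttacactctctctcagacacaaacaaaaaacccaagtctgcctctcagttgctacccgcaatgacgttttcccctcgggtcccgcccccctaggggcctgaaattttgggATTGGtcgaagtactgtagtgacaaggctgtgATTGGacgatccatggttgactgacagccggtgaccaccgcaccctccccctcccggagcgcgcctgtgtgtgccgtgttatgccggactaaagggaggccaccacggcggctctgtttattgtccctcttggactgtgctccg

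The Top2a window held 6 CCAAT matches and the Top2b window 2. Of 27025 promoter windows of the same length, 37.9% held at least 1 match and 1.14% held 4 or more. The letters of the cell cycle homology region, TTTGAA or TTCAAA, occurred in 2 places in Top2a and in none in Top2b, and in 18.1% of all windows. The GC box, GGGCGG or CCGCCC, occurred once in each, and in 35.9% of all windows. Among the 12243 windows of genes in the deposited table, 38.9% held CCAAT, 1.85% held 4 or more CCAAT matches, 12.6% held the cell cycle homology letters and 59.7% the GC box. No 2 of these matches overlapped in either promoter. Promoters of Top1, Top3b, Tdp1 and Sprtn were also available, which made 6 of 9 members. Top3b had 1 CCAAT match and Top1, Tdp1 and Sprtn had none. The cell cycle homology letters occurred in 1 place in Tdp1 and in none in Top1, Top3b and Sprtn. The GC box occurred in 3 places in Top1, 2 in Sprtn, 1 in Tdp1 and none in Top3b. Among 19 promoters of genes known to be expressed with Top2a from S phase to mitosis, 14 (73.7%) held CCAAT and 11 (57.9%) the cell cycle homology letters. The GC box occurred in 16 of these 19 promoters (84.2%). A match is only a description of these letters.

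Top1, the nuclear enzyme that nicks 1 strand to relax supercoils ahead of polymerases, gave 40.99, 42.54 and 42.88 FPKM in the treated and 43.19, 43.62 and 42.05 FPKM in the PBS libraries. The groups overlapped, with the lowest value in treated replicate 1. The log2 fold change was -0.027 (SE 0.0284, limma adjusted p = 0.591), with an interval of -6.08% to 2.53%. Top1mt, the mitochondrial form of this enzyme, gave 10.13, 9.307 and 10.59 FPKM in the treated and 10.61, 10.09 and 10.18 FPKM in the PBS libraries. Treated replicate 2 stood below the other 5, and without it the estimate of -0.038 (SE 0.0467, adjusted p = 0.650) turned to 0.008. The ratio of Top1 to Top1mt was 4.22 ± 0.303 in treated and 4.17 ± 0.131 in PBS libraries (SD, n = 3 each; exact permutation p = 1.0).

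Top3a, which decatenates DNA with the BLM helicase and also acts in mitochondria, gave 4.006, 4.237 and 4.040 FPKM in the treated and 4.706, 4.179 and 4.440 FPKM in the PBS libraries. Treated replicate 2 lay above PBS replicate 2, so the groups overlapped. Its estimate was the lowest of the 9, at -0.094 (SE 0.0496, adjusted p = 0.265), with an interval of -13.2% to 1.13%, and 16.2% of all tested genes had a lower one. Top3b, which also acts on RNA together with TDRD3, gave 10.23, 8.773 and 9.201 FPKM in the treated and 10.55, 9.806 and 9.591 FPKM in the PBS libraries. Treated replicate 1 was within the PBS range and the other 2 below it, and the log2 fold change was -0.080 (SE 0.0552, adjusted p = 0.398). Among the treated libraries Top3b varied most of the 9, with a coefficient of variation of 7.99% where counting alone gives 2.60%. The table gives 1 value per gene, so nuclear and mitochondrial forms of Top3a cannot be told apart.

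**Figure D2:**
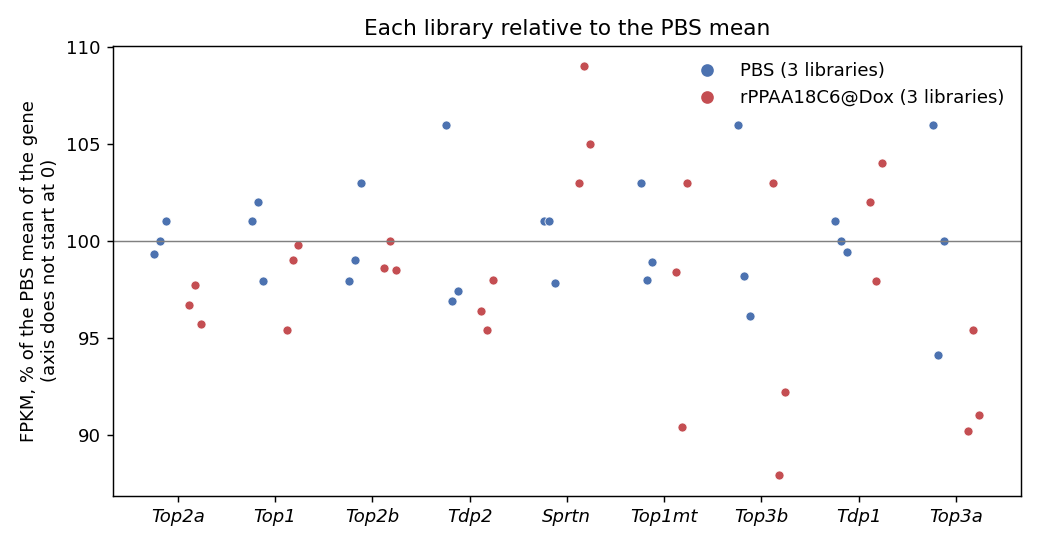
FPKM of each library as a percent of the PBS mean of the same gene (axis from below 90 to 110, not from 0); each point is 1 library, PBS in blue and rPPAA18C6@Dox in red. All points lie between 87.9% and 109%, and only Top2a (lower) and Sprtn (higher) have groups that do not overlap.

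Among the repair enzymes, Sprtn gave 10.96, 11.53 and 11.13 FPKM in the treated and 10.75, 10.73 and 10.39 FPKM in the PBS libraries. Every treated library was above every PBS library. The mean was 5.51% higher, at 11.21 ± 0.292 against 10.62 ± 0.199 FPKM (SD, n = 3 libraries each), a log2 fold change of 0.071 (SE 0.0349, limma adjusted p = 0.235, and 0.136 to 0.479 over the alternatives), with an interval of -0.493% to 10.9%. The p in the authors' deposited table was 0.05453 for Sprtn, the smallest of the 9, and their largest was 0.8638 for Top2b. Of the exon bases of Sprtn, 10.4% overlap the antisense gene Gm45709 in the annotation. Thus 2 of the 9 members, Top2a and Sprtn, had groups that did not overlap, whereas this held for 31.3% of all tested genes.

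Tdp2 gave 24.09, 23.86 and 24.49 FPKM in the treated and 26.44, 24.22 and 24.34 FPKM in the PBS libraries. PBS replicate 1 was the only library above 25 FPKM, and the other 5 lay within 23.86 to 24.49 FPKM. The log2 fold change was -0.047 (SE 0.0367, limma adjusted p = 0.456) and -0.008 without PBS replicate 1. Relative to the summed FPKM of Top2a and Top2b, Tdp2 was at 0.128 ± 0.00297 in treated and 0.128 ± 0.00754 in PBS libraries (SD, n = 3 each; exact permutation p = 1.0). PBS replicate 1 was also the highest library for Top1mt, Top3a and Top3b, which made 4 of the 9 members.

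Tdp1 gave 4.992, 4.784 and 5.103 FPKM in the treated and 4.911, 4.889 and 4.855 FPKM in the PBS libraries. The treated libraries lay on both sides of the PBS range. The PBS values had a coefficient of variation of 0.578%, below the 2.56% that counting alone gives. The log2 fold change was 0.018 (SE 0.0415, limma adjusted p = 0.827), with an interval of -5.04% to 7.96%. Its ratio to Top1 was 0.118 ± 0.00479 in treated and 0.114 ± 0.00168 in PBS libraries (SD, n = 3 each; exact permutation p = 0.30). For both phosphodiesterases the difference between groups was within the spread of the libraries.

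**Figure D3:**
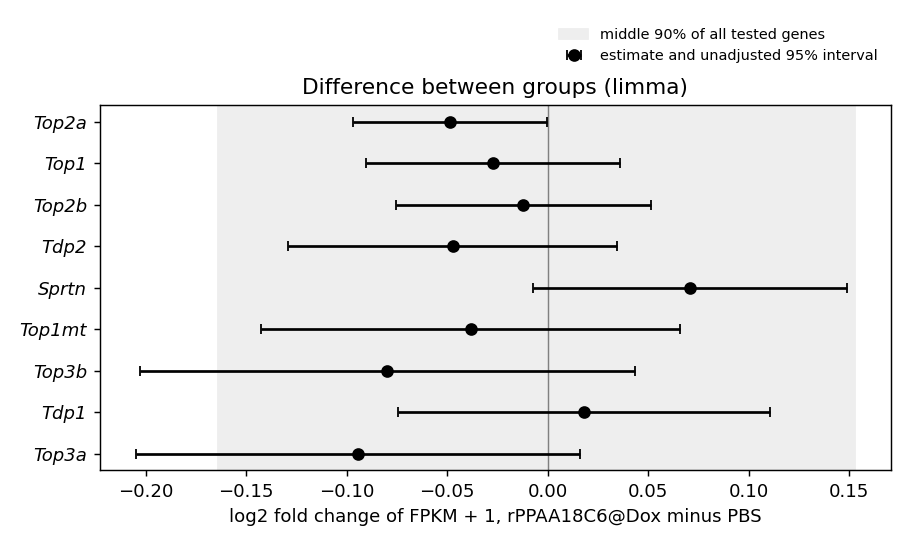
Log2 fold change of FPKM + 1 (x axis, rPPAA18C6@Dox minus PBS) of each gene from limma; points are estimates and bars unadjusted 95% intervals from 3 libraries per group, and the grey band holds the middle 90% of the estimates of all tested genes, from -0.164 to 0.153. All 9 estimates lie inside the band, between -0.094 and 0.071.

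Genes that work with these enzymes were read from lists chosen by role, though with earlier results of these data known. The background was 4.66% of tested genes called higher and 5.26% called lower. For TOP1 adducts and single-strand breaks, 0 of 12 tested genes rose and 1 fell: the DNA ligase Lig1 gave 38.08, 38.53 and 38.01 FPKM in the treated and 40.55, 41.12 and 42.50 FPKM in the PBS libraries (log2 fold change -0.112, SE 0.0271, adjusted p = 0.0296). That call was lost in 7 of 13 alternatives, among them leaving out any library but PBS replicate 1, with adjusted p up to 0.107. The flap endonuclease Fen1 was at 35.2 ± 0.940 FPKM in treated and 37.4 ± 1.37 FPKM in PBS libraries (-0.086, adjusted p = 0.137). In the annotation 78.8% of its exon bases overlap the antisense gene Gm10143. Overlaps with genes on the other strand were also annotated for Ube2c (22.8%, Tnnc2), Twnk (12.6%, Mrpl43) and Ccna2 (12.5%, Exosc9), which are named below, and smaller ones for others. Their part in the values was not tested. Of 13 nucleases and cofactors that can cut out a trapped topoisomerase, 0 passed in limma or voom and 2 had an unadjusted p under 0.05, namely Ercc1 (-0.148, adjusted p = 0.0861) and Exo1 (-0.127, adjusted p = 0.0925). Their median log2 fold change was -0.018.

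Of 17 genes of the SUMO and ubiquitin steps on trapped topoisomerases, 0 were called by limma and 1 by voom, while 7 reached an unadjusted p under 0.05. The ubiquitin ligases Rfwd3 (-0.098, adjusted p = 0.0678) and Topors (0.083, adjusted p = 0.0831) had the smallest p, and the list's median was -0.041. The voom call was Topors, higher (adjusted p = 0.0303), whereas limma called Sumo2 lower with quantile normalization (0.0322) and without PBS replicate 3 (0.0446), and Rfwd3 lower without rPPAA18C6@Dox replicate 1 (0.0453). Of 14 genes of DNA-protein crosslink proteolysis, which include partners of SPRTN such as the segregase p97 (Vcp) and other proteases such as Fam111a, 0 passed in limma or voom and 2 had an unadjusted p under 0.05. These were the deubiquitinase Usp1 (-0.094, adjusted p = 0.0609) and the replication clamp Pcna (-0.098, adjusted p = 0.0775). Of these 14 estimates 11 were below 0.

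End joining, which seals the breaks once TDP2 has cleaned them, held the rises that limma called with all 6 libraries: 2 of 11 tested genes rose and 0 fell. Xrcc5, the Ku80 subunit that binds DNA ends, gave 61.07, 62.73 and 62.48 FPKM in the treated and 54.84, 54.08 and 54.54 FPKM in the PBS libraries (log2 fold change 0.185, SE 0.0240, limma adjusted p = 0.00148). Lig4, the ligase of this route, gave 8.880, 9.055 and 8.489 FPKM in the treated and 7.121, 7.444 and 7.113 FPKM in the PBS libraries (0.254, SE 0.0393, adjusted p = 0.00392). Neither gene overlapped between groups, and both passed in all 13 alternatives. No other gene of the list was called, among them Xrcc6 (0.040, limma adjusted p = 0.507) and Xrcc4 (-0.023, adjusted p = 0.796). Atm also did not overlap between groups, but it was lower in the treated libraries (-0.066, limma adjusted p = 0.279). Of the 11 estimates 4 were below 0. The list's median was 0.040, beside -0.013 over all tested genes.

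Of 10 tested TOP3 partners and RecQ helicases, 0 rose and 1 fell, Rmi2, a subunit of the complex of BLM and TOP3A. It gave 1.355, 1.486 and 1.527 FPKM in the treated and 2.024, 1.990 and 1.742 FPKM in the PBS libraries (-0.248, SE 0.0622, adjusted p = 0.0341). The fall was no longer called in 8 of 12 alternatives, among them leaving out any library but PBS replicate 3, with adjusted p up to 0.105. The helicase Recql4 was at 5.83 ± 0.640 FPKM in treated and 6.88 ± 0.0113 FPKM in PBS libraries (-0.211, adjusted p = 0.0553). The coefficient of variation of its PBS values was 0.164%, below the 3.07% that counting alone gives. Recql4 was called lower by voom (0.0109), under the filter of 5 FPKM (adjusted p = 0.0394) and without rPPAA18C6@Dox replicate 1 (0.00803). Tdrd3, the partner of TOP3B, was below the filter. Of 14 genes that maintain mitochondrial DNA, where TOP1MT and TOP3A act, 0 were called by limma and 1 by voom, while 5 reached an unadjusted p under 0.05. The polymerase Polg (-0.120, adjusted p = 0.0787, and called lower by voom) and the helicase Twnk (-0.111, adjusted p = 0.118) had the smallest p there.

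Among 17 condensin, cohesin and other chromatin genes that work with TOP2, 0 rose and 5 fell. The condensin subunit Ncapd2 gave 61.37, 61.37 and 60.14 FPKM in the treated and 68.46, 70.78 and 69.63 FPKM in the PBS libraries (-0.189, SE 0.0246, limma adjusted p = 0.00152), and passed in all 13 alternatives. The other 4 were the chromatin protein Hmgb2 (-0.140, adjusted p = 0.0213), the condensin subunit Ncaph (-0.105, adjusted p = 0.0224), the checkpoint scaffold Topbp1 (-0.106, adjusted p = 0.0243) and the cohesin subunit Rad21 (-0.079, adjusted p = 0.0492). The count of falls rested on all libraries: it was 2, 1 and 3 without treated replicates 1, 2 and 3, and 1, 2 and 1 without PBS replicates 1, 2 and 3. It was 2 with the replicate number as a block and 1 without the trend. The list's median was -0.079.

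Top2a is known to be expressed with other genes of S phase to mitosis, and of 24 such genes 0 rose and 8 fell (33.3%). The nuclear lamin Lmnb1 gave 40.67, 41.58 and 41.22 FPKM in the treated and 46.85, 47.16 and 46.95 FPKM in the PBS libraries (-0.187, SE 0.0242, limma adjusted p = 0.00147). The mitotic kinase Aurkb gave 75.75, 76.53 and 76.24 FPKM in the treated and 86.93, 84.67 and 85.69 FPKM in the PBS libraries (-0.169, SE 0.0229, adjusted p = 0.00187). The others that fell were Rrm2, Aurka, Ube2c, Cdk1, Plk1 and Ccna2, by log2 fold changes between -0.146 and -0.094. All 24 estimates were below 0, from -0.187 to -0.031, with a median of -0.096, and 21 of them were below that of Top2a (-0.048). The count was 7 to 9 over the alternatives, and the call of Ccna2 (adjusted p = 0.0270) was lost without any 1 of the 6 libraries (up to 0.0903). The difference between Top2a and this list was not tested.

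**Figure D4:**
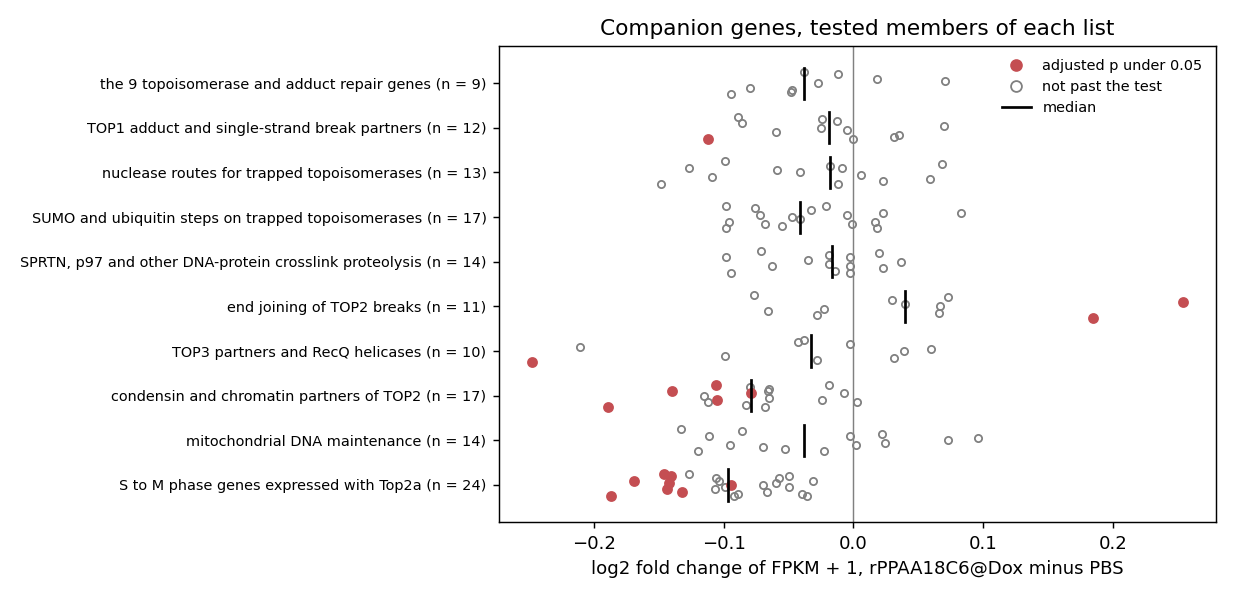
Log2 fold change of FPKM + 1 (x axis, rPPAA18C6@Dox minus PBS) of every tested gene in each list (y axis, with the number of genes); filled red points passed limma's adjusted p of 0.05, open points did not, and black bars are medians. The 9 topoisomerase and repair genes hold no filled point, end joining holds 2 to the right of 0 and the S to M phase list 8 to the left.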

How the data were processed

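Poly(A) RNA of 6 libraries was measured, per the labels' protocols with a stranded mRNA kit. The deposited values were read as FPKM computed by the authors, from the values, since the header names no unit. The deposited p-value of each gene is the authors' own, and its test is not given in the sources used here. The submitters' processing notes name mm9 as the build; no aligner or counter is stated in the sources used here. Whole reads were recovered from the steps of the FPKM values for all 15726 genes within a tolerance of 0.01, at 36380462 to 37067116 reads per library.

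Differences were tested with limma 3.58.1 in R 4.3.3 on log2(FPKM + 1), two-sided, unpaired, with a mean-variance trend and Benjamini-Hochberg adjustment (threshold 0.05). Genes whose mean reached 1 FPKM in either group were tested (10680; 5046 set aside). Fold changes on this scale understate those of low genes. On simulated libraries the test called 2 of 50 genes changed 1.1-fold, 48 of 50 changed 1.25-fold and 10 of 10429 unchanged genes. Their spread beyond counting noise was a fixed setting, the same for every gene, and was not fitted to these data. Alternatives were another pseudocount, filter, scaling, voom with TMM on recovered reads, no trend, a replicate block and leaving out each library. All 9 members and the 2 genes of each list with the smallest p were named, with the other genes that passed and some that did not. Likeness to other genes was to be given for members that passed, and none did. Members and lists were chosen with earlier results of these data known. Gcna, Spo11 and Top6bl were not analysed here.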

Additional observations from a re-analysis of the deposited data

How the results depend on the processing

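No member passed the threshold in any of the 13 alternatives fitted, with adjusted p down to 0.0685 (Top2a with quantile normalization). Of 115 member values under the alternatives, 112 kept their direction. Top1mt turned to 0.008 without rPPAA18C6@Dox replicate 2, and Top2b to 0.006 with voom and to 0.010 without PBS replicate 3; the cause was not tested. With 1 library left out the estimates were -0.042 to -0.008 for Top1, -0.076 to 0.008 for Top1mt, -0.056 to -0.041 for Top2a, -0.027 to 0.010 for Top2b, -0.129 to -0.060 for Top3a, -0.136 to -0.036 for Top3b, 0.001 to 0.039 for Tdp1, -0.069 to -0.008 for Tdp2 and 0.052 to 0.085 for Sprtn. Tdp1 and Top3a had no value at a mean of at least 5 FPKM. The log2 balance of Top2a to Top2b was -0.054 to -0.026 with 1 library left out, -0.072 with quantile normalization and -0.036 with paired differences by replicate number.

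The count of all genes called was 1060, and 600 to 749 with 1 library left out, 681 with no filter on low values (where more genes are tested) and 1559 with voom. Same-numbered libraries of both groups had correlations of deviations of -0.002, 0.055 and -0.021, and those of other numbers ran from -0.062 to 0.060. No effect shared by replicate number was thus seen, but such correlations cannot tell whether libraries were prepared in pairs. The replicate block gave 825 calls and none among the members. With 3 libraries a group, changes of about 1.1-fold were mostly missed in simulated libraries. Those had the same spread beyond counting noise for every gene and 50 changed genes at each fold beside 10429 unchanged. In these data limma called 1060 genes, with changes down to 0.0786 on the log2 scale. That smallest change does not show how often a change of its size is found. The spread of the simulated libraries was not fitted to these data, so they do not give the power of the test here.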
